A study of Rattus norvegicus with 56 samples.

Results

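The genes described here are 10 circadian clock genes of the rat brain: the negative arm of the clock (Per1, Per2, Per3, Cry1, Cry2 and Ciart), the REV-ERB receptors (Nr1d1, Nr1d2) and the PAR bZIP activators (Dbp, Tef). They were chosen by name. A probe of the microarray was taken as theirs when its transcript accession, read without its version, mapped to one of these symbols in RefSeq. That gave 13 probes for the 10 genes, out of 45598 probes in all, of which 46.3% mapped to a symbol (16581 symbols). Dbp, Per1 and Nr1d2 have 2 probes each, and the brighter one is used unless stated. The array is a 1-color Agilent design, on which total RNA was labeled with Cy3.

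The cellular clock is a feedback loop. CLOCK and BMAL1 bind E-boxes and switch on Per, Cry, Nr1d1, Nr1d2 and Dbp, the PER and CRY proteins then block CLOCK and BMAL1, and the cycle restarts once they are degraded. REV-ERB proteins repress Bmal1 while ROR receptors activate it, and DBP and TEF act on D-boxes. Per1 and Per2 are also induced by neuronal activity and by glucocorticoids, and the hippocampus and neocortex hold rhythms of these transcripts that follow the time of day.

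The experiment asked how intermittent theta burst stimulation (iTBS), magnetic stimulation of the brain in short repeated bursts through the skull, alters transcription in the brains of young and aged rats. All animals were male Long-Evans rats: young rats of 6 to 7 months, and aged rats of 26 to 27 months that were classed in a water maze as unimpaired (AU) or impaired (AI). Each received iTBS or sham stimulation under light isoflurane and Dexmedetomidine, sedation was reversed with Antisedan, and tissue was taken 48 h later, so the controls share the anesthesia, the sedatives and the handling. The groups hold 4 Y_Sham, 4 Y_iTBS, 4 AU_Sham, 5 AU_iTBS, 4 AI_Sham and 3 AI_iTBS rats, with hippocampus and parietal cortex from the same 24 animals. Groups and maze classes follow the sample labels, which hold more aged rats than the study's methods describe. The animals lived on a light/dark cycle, and the clock time at which each one was stimulated or sacrificed is not given in the sources used here.

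The tissue labels were checked against markers: 5 of 6 hippocampal markers were higher in hippocampus (Klk8 by 7.42 on the log2 scale) and 5 of 6 neocortical markers were higher in cortex (Tbr1, with a hippocampus minus cortex difference of −1.47). The libraries also carried choroid plexus, whose 6 markers summed to a log2 level between 4.97 and 11.11 in hippocampus and between 3.45 and 9.45 in cortex. The first arrays of 15 animals, both regions, were scanned on day 1 and those of the other 9 later. There were 3 scan days. The later cortex arrays were scanned on day 2, and the later hippocampus arrays on day 3, except AU_iTBS replicate 3 (day 2). Below, scan day means that of an animal's first array, day 1 against later, with days 2 and 3 pooled. Repeat arrays scanned on day 2 were averaged into the values of some day 1 animals. These were Y_Sham replicate 3 in both regions, AI_iTBS replicate 2 in hippocampus and AU_iTBS replicate 4 in cortex. Over all probes, 2 cortex samples lay farthest from the median animal, AU_iTBS replicate 2 (median absolute difference 0.442) and replicate 3 (0.405), against a median of 0.206 over 24 cortex samples. Results that rest on these 2 animals are given with and without them. A cortex repeat array titled AI_iTBS 2 was closer to AI_Sham 2 (0.151) than to the first array of its own animal (0.283) and was left out, and 1 array whose labels conflict was assigned to no group.

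All 13 probes were well above background on all 56 arrays and none was saturated. Signal is given as a normalized log2 value on which 0 is the mean of an array, and because probes differ in brightness, no gene's level is set against another's. In bulk tissue, fewer cells of a type and less RNA per cell cannot be told apart.

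Promoter sequence is shown for 3 members, Ciart and Nr1d1 because their cortex signal had the widest ranges over animals, and Per2 because it differed between the regions in every animal. The windows are the 250 bases before a RefSeq start in assembly GRCr8, printed 5′ to 3′ on the strand of the gene. They are chr2:186112247-186112496 (minus strand) for Ciart, chr9:99496994-99497243 (minus strand) for Per2 and chr10:84231813-84232062 (minus strand) for the first of 2 listed Nr1d1 starts. Capitals mark CACGTG (an E-box), CACGTT or its reverse complement AACGTG (a variant E-box) and TTATGTAA (a D-box-like sequence).
Ciart: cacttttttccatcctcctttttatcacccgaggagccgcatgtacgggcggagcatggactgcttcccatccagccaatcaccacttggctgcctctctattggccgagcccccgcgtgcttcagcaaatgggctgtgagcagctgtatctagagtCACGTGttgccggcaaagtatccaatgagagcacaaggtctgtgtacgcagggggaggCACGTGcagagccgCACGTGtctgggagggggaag
Per2: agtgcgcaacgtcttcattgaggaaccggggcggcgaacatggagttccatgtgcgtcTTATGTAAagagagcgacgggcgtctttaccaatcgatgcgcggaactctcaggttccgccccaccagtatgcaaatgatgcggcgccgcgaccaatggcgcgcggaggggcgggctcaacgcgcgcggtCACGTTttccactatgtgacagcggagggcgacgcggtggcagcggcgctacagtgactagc
Nr1d1: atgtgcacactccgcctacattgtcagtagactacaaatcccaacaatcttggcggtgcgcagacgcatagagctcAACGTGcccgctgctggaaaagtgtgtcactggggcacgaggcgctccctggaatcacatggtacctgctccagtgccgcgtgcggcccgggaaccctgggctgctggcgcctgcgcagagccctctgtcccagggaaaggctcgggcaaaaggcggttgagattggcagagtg
Matches were sought from 250 bases before to 50 after each start, on both strands. The Ciart window holds CACGTG at 3 places, beginning 93, 35 and 21 bases before the start. In the Per2 window CACGTT begins 62 and TTATGTAA 192 bases before the start, and in the Nr1d1 window AACGTG begins 174 bases before it. The table holds 9 of the 10 members, all but Cry1. CACGTG was found before 3 of them (Ciart, Tef and the second Nr1d1 start) against 6.42% of all 33469 promoters. CACGTT, on either strand, was found before 3 (Cry2, Per2 and Nr1d1) against 4.83%, and TTATGTAA, on either strand, before Per2 against 0.893%. TTACGTAA (0.12% of promoters), the REV-ERB half-site TAGGTCA (2.63%) and the cyclic AMP element TGACGTCA (1.83%) were found in none of the 9. No match overlapped another, a gene may have other starts, and a match describes the letters alone.

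No difference between iTBS and sham was detected for any of the 10 genes at 48 h beyond the spread between animals. In the 4 comparisons with sham (young, AU, AI, and AU with AI as aged) in each region, 0 of 80 tests passed limma with Benjamini-Hochberg adjustment over all probes, and 1 of 80 had an unadjusted p under 0.05. The background was equally low: 0% of probes were called in 7 of the 8 comparisons and 0.00613% in the AI comparison in cortex. Differences of iTBS minus sham ran from −0.39 to 0.52 on the log2 scale with standard errors of 0.0658 to 0.558, and the smallest adjusted p was 0.578. No member separated an iTBS group from its sham group without overlap. Of all probes, 3.13%, 0.477% and 2.36% did so in young, AU and AI hippocampus and 1.57%, 1.63% and 4.16% in young, AU and AI cortex. A selection rule on z scores, rebuilt here from the methods of the study and possibly not identical to the program it used, also took 0 members. It took 0.13%, 0.031%, 0.0265% and 0.0575% of probes in young, aged, AU and AI hippocampus, and 0.0884%, 0.0442%, 0.0508% and 0.0906% in cortex in the same order.

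**Figure D1:**
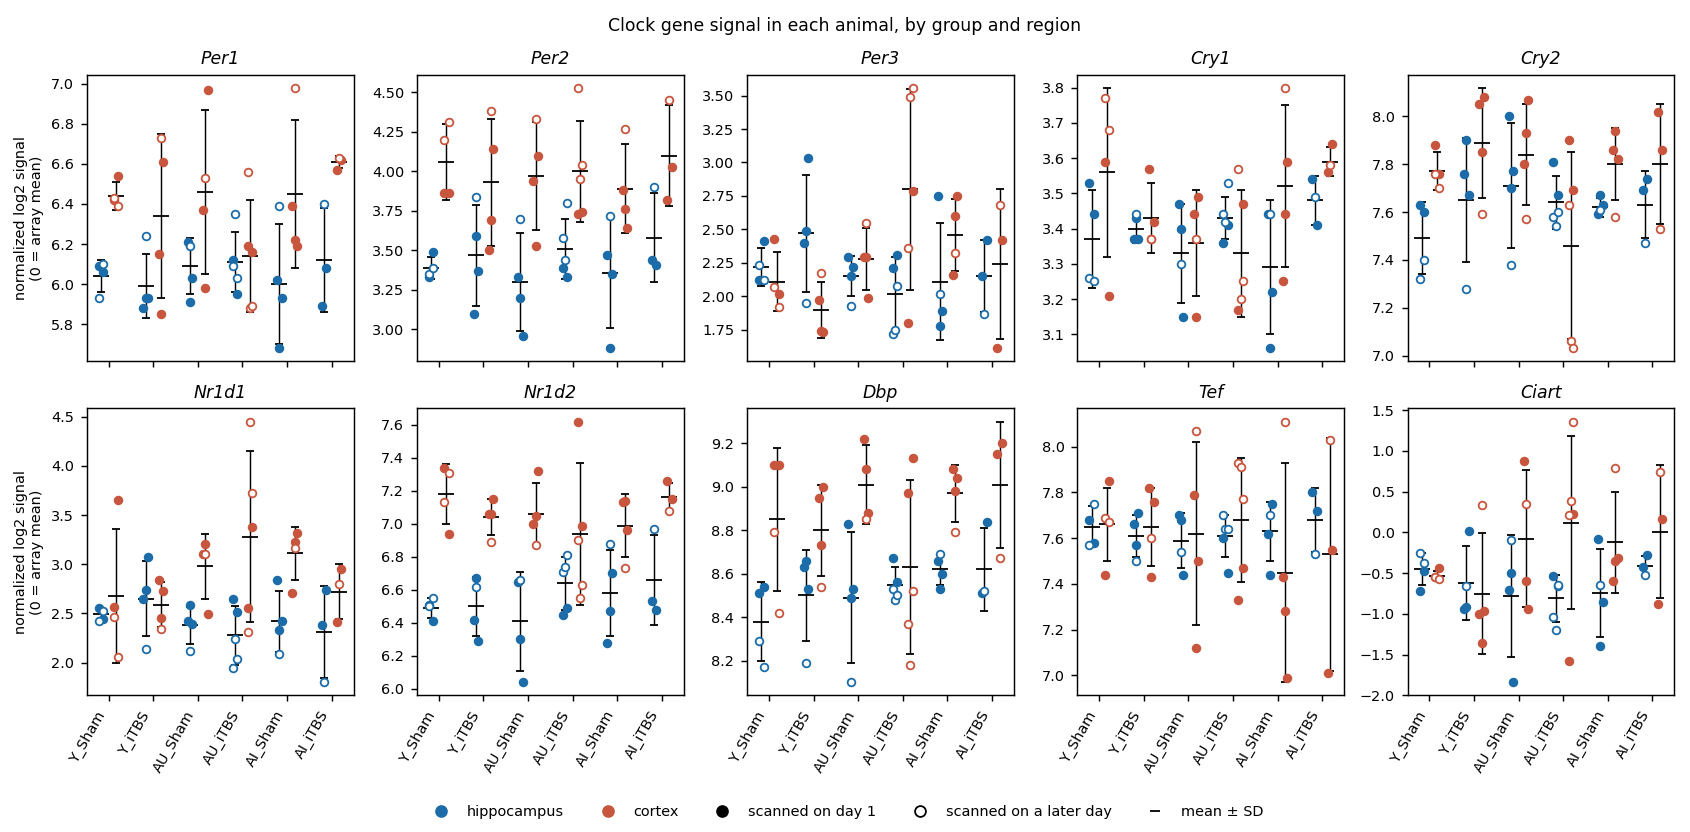
Normalized log2 signal (vertical axis, 0 is the array mean) of the 10 clock genes in each animal of the 6 groups (horizontal axis), hippocampus in blue and cortex in red, with open points for animals scanned later. Bars are the mean ± SD of a group. The sham and iTBS points of every gene overlap within each age class, and the 2 lowest Cry2 cortex points are AU_iTBS animals at 7.06 and 7.03.

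Per2, a core repressor that also acts as an immediate early gene, gives the picture in hippocampus. Its normalized log2 signal there was 3.35, 3.39, 3.33 and 3.49 in Y_Sham and 3.84, 3.1, 3.59 and 3.37 in Y_iTBS. In the aged unimpaired rats it was 3.7, 3.33, 3.2 and 2.96 in AU_Sham and 3.58, 3.44, 3.8, 3.39 and 3.33 in AU_iTBS. In the impaired rats it was 3.72, 3.47, 2.88 and 3.35 in AI_Sham and 3.9, 3.44 and 3.41 in AI_iTBS. The sham and iTBS values overlapped in each class, and the iTBS minus sham difference over all aged rats was 0.22 ± 0.133 (SE; limma adjusted p = 0.978). In cortex that difference was 0.12 ± 0.162 (SE; adjusted p = 1.0).

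Cry1, the other CRY repressor, had the next lowest p after Cry2 among the iTBS comparisons, in the hippocampus of the aged rats. It read 3.3, 3.47, 3.4 and 3.15 in AU_Sham and 3.44, 3.44, 3.06 and 3.22 in AI_Sham. It read 3.44, 3.42, 3.53, 3.36 and 3.41 in AU_iTBS and 3.49, 3.54 and 3.41 in AI_iTBS. The 4 lowest sham values lay under all iTBS values and the other 4 fell among them, for a difference of 0.14 ± 0.0689 (SE; adjusted p = 0.978).

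The lowest p of the iTBS comparisons lay in the cortex of the AU rats, the group with the 2 samples that stood apart. There Cry2, a core repressor, differed by −0.38 ± 0.172 (SE; adjusted p = 0.578), and it was the 1 gene that passed before adjustment. Its cortex signal was 7.57, 7.8, 7.93 and 8.07 in AU_Sham and 7.63, 7.06, 7.03, 7.9 and 7.69 in AU_iTBS. Replicates 2 and 3 were the low ones and the other 3 fell among the sham values. Without these 2 animals the difference was −0.10 ± 0.153 (SE). Among animals scanned on day 1 the difference was −0.14 (2 iTBS, 3 sham), and among those scanned later it was −0.33 (3 iTBS, 1 sham). In the day 1 set, the 7.9 of AU_iTBS replicate 4 is the mean of 8.0 on day 1 and 7.79 on day 2.

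Per3, a less essential Per paralog, differed by 0.52 ± 0.287 (SE; adjusted p = 0.579) in the same comparison. Its AU_iTBS values were 2.36, 3.49, 3.56, 1.8 and 2.79 and its AU_Sham values 2.55, 2.29, 2.29 and 1.99. The REV-ERB gene Nr1d1 read 2.31, 4.45, 3.72, 2.56 and 3.38 in AU_iTBS cortex and 3.1, 3.1, 3.21 and 2.49 in AU_Sham. For both genes replicates 2 and 3 were the 2 highest of all cortex samples, and the remaining AU_iTBS values spread to either side of the sham values. Without them the differences were 0.03 ± 0.249 (SE) for Per3 and −0.23 ± 0.312 (SE) for Nr1d1, which had been 0.31 ± 0.347 (SE) with them. Dbp, a direct output of CLOCK and BMAL1, read 8.37, 8.18, 8.52, 8.97 and 9.13 in AU_iTBS cortex against 8.85, 9.22, 9.08 and 8.88 in AU_Sham (−0.38 ± 0.19, SE; adjusted p = 0.578; −0.19 ± 0.201 without replicates 2 and 3). The same 2 samples had astrocyte marker sums at the low end of the cortex (9.12 and 8.98, others 9.11 to 10.09) and choroid plexus sums of 4.05 and 3.45 (others 4.03 to 9.45), with 69.7 and 68.3% of probes well above background (cortex median 63.9%). The part of these features in the clock gene values was not tested.

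**Figure D2:**
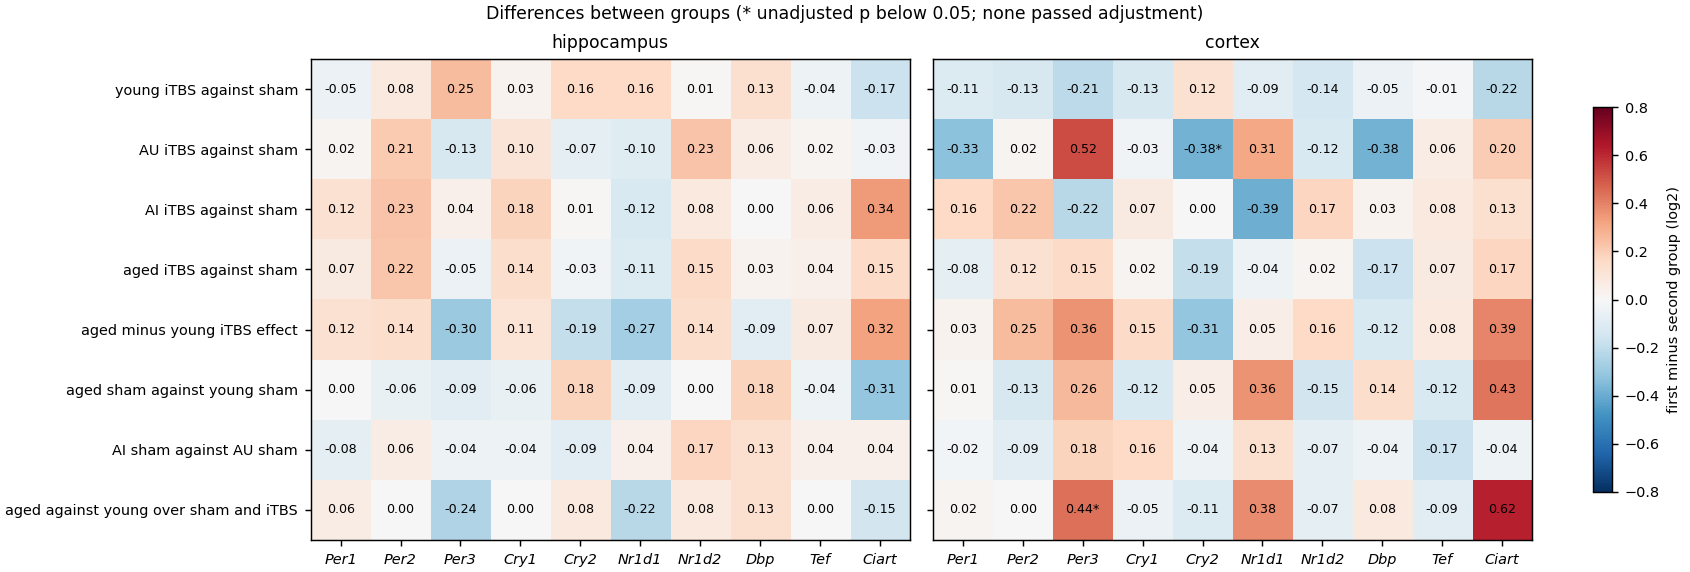
Difference of the first minus the second group named (log2, color and printed value) for the 10 genes (columns) in 8 comparisons (lines) in hippocampus and cortex. An asterisk marks an unadjusted p below 0.05, which only Cry2 in AU cortex (−0.38) and Per3 in aged cortex (0.44) reached, and no difference passed adjustment.

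Age and cognitive status gave the same count. For aged sham against young sham, impaired sham against unimpaired sham, and all aged against all young, 0 of 60 tests passed and 1 had an unadjusted p under 0.05, with a smallest adjusted p of 0.308. Of all probes, 0.00308% and 0.104% were called for aged against young sham in hippocampus and cortex, 0% in both regions for AI against AU sham, and 0.511% and 0.402% for all aged against all young. Differences ran from −0.31 to 0.62 with standard errors of 0.0564 to 0.517. The iTBS effect was not found to differ by age, as 0 of 20 tests of the aged minus the young effect passed in limma and 0 had an unadjusted p under 0.05 (0% of probes called in either region; differences −0.31 to 0.39; smallest adjusted p 0.801). Across all 6 groups together, 0.0492% of hippocampal and 0.156% of cortical probes were called by limma's F test, and 0 members were, with 0 at an unadjusted p under 0.05. No member separated the age or cognitive groups without overlap, which 0.465% and 1% of probes did for aged against young sham, 1.3% and 3.52% for AI against AU sham, and 0.0646% and 0.0644% for all aged against all young, in hippocampus and cortex.

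Per3 in cortex had the lowest p of the age comparisons. Its signal ran from 1.73 through a median of 1.995 to 2.43 in the 8 young rats, and from 1.61 through 2.39 to 3.56 in the 16 aged rats. The aged minus young difference was 0.44 ± 0.186 (SE; adjusted p = 0.308). It was 0.29 among the animals scanned on day 1 and 0.77 among those scanned later, and 0.32 ± 0.145 (SE; adjusted p = 0.446) without AU_iTBS replicates 2 and 3. In hippocampus the corresponding difference was −0.24 ± 0.131 (SE; adjusted p = 0.432).

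Ciart, the repressor also known as CHRONO, had the widest spread of the 10. In young cortex it read −0.55, −0.57, −0.55 and −0.44 in Y_Sham and 0.33, −1.0, −1.36 and −0.97 in Y_iTBS. In AU rats it read 0.35, 0.87, −0.6 and −0.94 after sham and 0.21, 0.39, 1.36, −1.58 and 0.22 after iTBS. In AI rats it read 0.79, −0.6, −0.35 and −0.32 after sham and 0.74, −0.88 and 0.16 after iTBS. The Y_Sham values sat close together while every other group covered over 1 log2 unit, and the highest (1.36) and lowest (−1.58) of the 24 values belonged to the same group. The aged minus young difference in cortex was 0.62 ± 0.318 (SE; adjusted p = 0.374), and 0.49 ± 0.304 (SE; adjusted p = 0.564) without AU_iTBS replicates 2 and 3.

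The 2 regions differed for most of the genes. In limma on the within-animal differences, 7 of 10 members passed, all higher in cortex, and 0 were higher in hippocampus. Of all 33770 probes 49.4% passed, 23.2% higher in cortex and 26.3% higher in hippocampus, and the median hippocampus minus cortex difference was −0.35 over the members and 0.02 over all probes. A regional difference was thus common on this array in either direction, whereas the 7 members were all higher in cortex.

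Per2 differed in every animal. Its signal ran from 2.88 through a median of 3.4 to 3.9 in hippocampus and from 3.5 through 3.95 to 4.53 in cortex, and the cortex was higher in 24 of 24 animals. The ranges of the regions overlapped, but the within-animal differences, from −1.14 through −0.53 to −0.10, were all negative. The fitted difference was −0.56 ± 0.0591 (SE; adjusted p = 9.4e-08), a 1.47-fold higher signal in cortex.

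The REV-ERB genes followed. Nr1d2 ran from 6.04 through 6.52 to 6.97 in hippocampus and from 6.55 through 7.06 to 7.62 in cortex, higher in cortex in 21 of 24 animals (−0.51 ± 0.0844, SE; adjusted p = 3.3e-05; 1.43-fold). Nr1d1 ran from 1.8 through 2.42 to 3.07 and from 2.06 through 2.82 to 4.45, higher in cortex in 19 animals (−0.47 ± 0.125, SE; adjusted p = 0.00359; 1.39-fold). The Nr1d1 ranges overlapped widely, and the difference was −0.37 ± 0.106 (SE; adjusted p = 0.00695) without AU_iTBS replicates 2 and 3.

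Dbp ran from 8.1 through 8.53 to 8.84 in hippocampus and from 8.18 through 8.96 to 9.22 in cortex, higher in cortex in 22 animals (−0.35 ± 0.0521, SE; adjusted p = 8.88e-06; 1.28-fold). Its second probe gave −0.38. Per1 ran from 5.68 through 6.05 to 6.4 and from 5.85 through 6.4 to 6.98, higher in cortex in 21 animals (−0.34 ± 0.0623, SE; adjusted p = 9.89e-05; 1.27-fold), whereas its dimmer probe gave −0.18 with an adjusted p of 0.305. For both genes the median of one region lay at or beyond an extreme of the other.

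Cry2 and Ciart passed by less. Cry2 ran from 7.28 through 7.63 to 8.0 in hippocampus and from 7.03 through 7.81 to 8.08 in cortex (−0.14 ± 0.0493, SE; adjusted p = 0.0254; 1.10-fold; higher in cortex in 19 animals). Ciart ran from −1.84 through −0.65 to 0.02 and from −1.58 through −0.40 to 1.36 (−0.41 ± 0.166, SE; adjusted p = 0.0454; 1.33-fold; 15 animals). The Ciart call was marginal: it was lost when any of 17 of the 24 animals was left out, and without AU_iTBS replicates 2 and 3 the difference was −0.32 ± 0.164 (SE; adjusted p = 0.116). Cry2 lost its call without AI_iTBS replicate 2 (adjusted p = 0.0596), under 75th percentile scaling (−0.10) and under quantile normalization (−0.05).

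Per3 (−0.11; adjusted p = 0.472), Cry1 (−0.08; adjusted p = 0.201) and Tef (0.03; adjusted p = 0.796) did not pass. Single animals of Tef, a D-box activator related to Dbp, lay between −0.52 and 0.80, and those of Per3 between −1.73 and 1.30, so these misses do not show equal levels in the 2 regions.

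**Figure D3:**
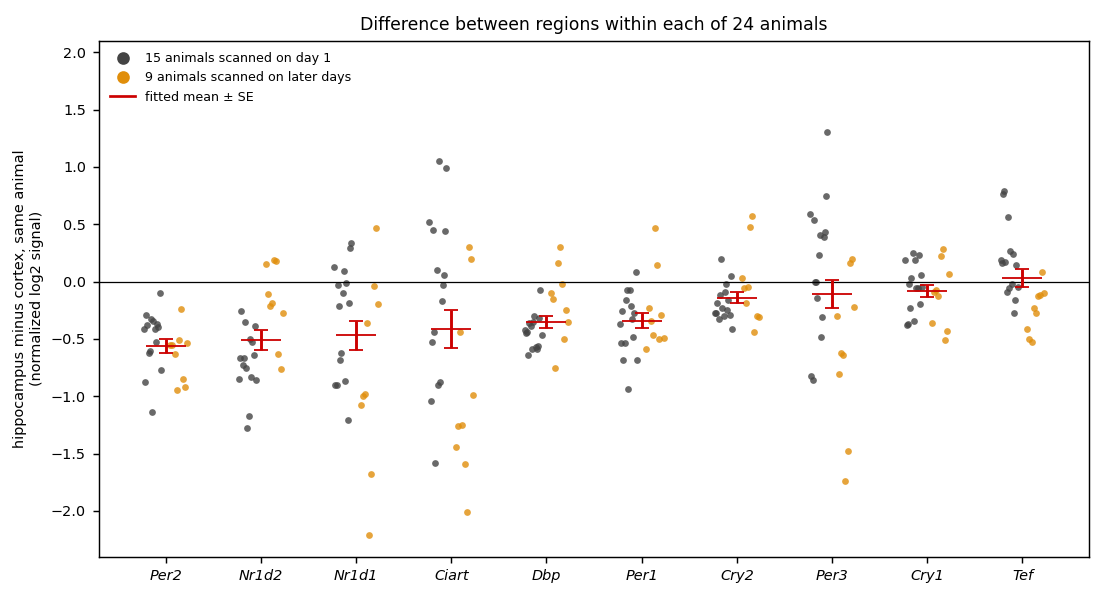
Hippocampus minus cortex difference of normalized log2 signal within each of 24 animals (vertical axis) for the 10 genes (horizontal axis, ordered by the fitted difference), in dark points for the 15 animals scanned on day 1 and orange points for the other 9. Red bars are the fitted mean ± SE. All Per2 points lie under 0, between −1.14 and −0.10.

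The size of the region difference varied with the scan day of the animals. In those scanned later, except AU_iTBS replicate 3, cortex was scanned on day 2 and hippocampus on day 3. Region and scan day thus cannot be told apart in that set. Per2 differed by −0.51 in the 15 animals scanned on day 1 and by −0.64 in the other 9, and Per1 by −0.37 and −0.26. Nr1d2 differed by −0.70 and −0.18, Dbp by −0.43 and −0.19, and Cry2 by −0.18 and −0.03. Nr1d1 went the other way, with −0.32 and −0.79, as did Ciart, with −0.13 and −0.94. All 7 called members kept a negative mean difference in both sets. Per3 and Tef changed sign between the sets, at 0.13 and −0.60 and at 0.17 and −0.25.

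Both regions of Y_Sham replicate 3 were run together on 2 slides, which sets the regions side by side on the same glass. The hippocampus minus cortex differences there were −0.59 and −0.51 for Per2, −0.86 and −0.80 for Nr1d2, −0.59 and −0.61 for Dbp, −0.36 and −0.26 for Per1 and −0.24 and −0.20 for Cry2. Nr1d1 differed by −0.04 and −0.06 in this animal, and the slides gave opposite signs for Ciart (0.23 and −0.54).

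With age, 3 genes had an unadjusted p under 0.05 for a different region difference. The mean hippocampus minus cortex difference was 0.10 in young and −0.70 in aged rats for Ciart, 0.34 and −0.38 for Per3, and −0.07 and −0.71 for Nr1d1. Cortex was higher in 3, 2 and 5 of 8 young rats and in 12, 12 and 14 of 16 aged rats. The fitted aged minus young values were −0.77, −0.68 and −0.61 (limma adjusted p = 0.307, 0.302 and 0.305). After adjustment 0 of 10 members passed, against 0.0237% of probes. Without AU_iTBS replicates 2 and 3 these values were −0.62, −0.54 and −0.45. By scan set, the aged minus young means in cortex were 0.46, 0.29 and 0.09 on day 1 and 0.90, 0.77 and 0.97 later. In hippocampus they were −0.12, −0.27 and −0.17 on day 1 and −0.26, −0.20 and −0.32 later. All 3 cortex differences were thus larger in the later set, above all for Nr1d1, where region and scan day cannot be told apart. For the effect of iTBS on the region difference, 0 members passed in young or aged rats in limma and 0 had an unadjusted p under 0.05 (0% of probes called in each).

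The other genes of the clock also tended to cortex. Of 16 further clock genes with a probe, taken from 4 lists of textbook members, 9 were higher in cortex and 0 in hippocampus. Over all probes the shares were 23.2% and 26.3%. Among the activators that drive E-boxes, Npas2 (−1.02 ± 0.0731, SE; adjusted p = 2.1e-10), Bmal2 (−0.99) and Bmal1 (−0.50) were higher in cortex, and Clock (−0.10; adjusted p = 0.351) did not pass. Rorb, a ROR receptor that is also a marker of cortical layer identity, differed by −0.97 ± 0.0481 (SE; adjusted p = 5.16e-13). The repressor Bhlhe40 (−0.36) passed and Nfil3 did not. Among 9 kinase and protein turnover genes, Timeless (−0.94), Csnk1e (−0.55), Gsk3b (−0.29) and Usp2 (−0.15) passed. In the 16 group comparisons 0 of 256 tests of these genes passed limma, and 8 had an unadjusted p under 0.05.

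Genes that share inducers or outputs with the members did not all follow. The counts below stand beside 23.2% of all probes higher in cortex and 26.3% higher in hippocampus, and some lie near these shares. Of 5 activity-induced genes, 4 were higher in cortex (Npas4 −2.07, Fos −1.42, Egr1 −0.93, Nr4a1 −0.48), and Arc did not pass. Of 4 glucocorticoid-induced genes, 2 were higher in hippocampus (Fkbp5 0.80, Sgk1 0.48) and the other 2 did not pass. Of 10 rhythmic output genes, 4 were higher in hippocampus (Avp 1.01, Por 0.52, Cdkn1a 0.49, Nampt 0.27) and 2 in cortex (Vip −1.69, Cirbp −0.12). Beside these, 3 of 4 neuronal markers were higher in cortex (Snap25 −0.46), and 3 of 4 astrocyte markers (Gfap 1.42), 3 of 4 oligodendrocyte markers (Mog 0.75) and 5 of 6 choroid plexus markers (Otx2 2.93) were higher in hippocampus. The remaining oligodendrocyte marker, Mbp (−0.35), was higher in cortex. The part of cell composition in the clock gene differences was not tested.

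More members differed by scan day than in any comparison of groups. With the 6 groups in the fit, the 9 animals scanned later differed from the 15 scanned on day 1 in 7 of 10 members in hippocampus and 6 of 10 in cortex, where 28% and 34.7% of all probes did. Each group held animals of both sets, and the scan day and whatever else those animals shared cannot be told apart.

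In hippocampus Per2 (0.33 ± 0.0893, SE; adjusted p = 0.00943), Nr1d2 (0.27) and Per1 (0.21) were higher in the animals scanned later. Nr1d1 (−0.44 ± 0.0892, SE; adjusted p = 0.00148), Per3 (−0.33), Cry2 (−0.26) and Dbp (−0.23) were lower. The Per2 signal ran from 2.88 through 3.35 to 3.59 in the day 1 animals and from 3.35 through 3.7 to 3.9 in the others, with overlap. Per3 missed the threshold without AU_iTBS replicates 2 and 3 (−0.34; adjusted p = 0.0548).

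In cortex Ciart (0.92 ± 0.258, SE; adjusted p = 0.01), Per2 (0.48 ± 0.0911, SE; adjusted p = 0.00058) and Tef (0.42) were higher in the animals scanned later, and Dbp (−0.44 ± 0.0755, SE; adjusted p = 0.000246), Cry2 (−0.36) and Nr1d2 (−0.26) were lower. Cry2 ran from 7.69 through 7.88 to 8.08 in the day 1 animals and from 7.03 through 7.58 to 7.76 in the others, and the sets overlapped only between 7.69 and 7.76. Without AU_iTBS replicates 2 and 3, Nr1d2 was no longer called (−0.19; adjusted p = 0.127). Per2, Dbp and Cry2 passed with the same sign in both regions, whereas Nr1d2 passed with opposite signs, by the brighter probes. The dimmer Nr1d2 probe was lower in both regions (−0.38 in hippocampus and −0.35 in cortex). The dimmer Dbp probe was lower in hippocampus (−0.25) and did not pass limma in cortex (−0.14; adjusted p = 0.196). The dimmer Per1 probe was higher in both (0.47 and 0.95).

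RNA of the same animal was also measured again on day 2. These readings were all on slide 6, so day and slide cannot be told apart. They do not reach day 3, on which the later hippocampus arrays were scanned, except that of AU_iTBS replicate 3. Such a reading was available for 4 samples, the hippocampus of Y_Sham 3 and AI_iTBS 2 and the cortex of Y_Sham 3 and AU_iTBS 4. The later minus day 1 differences in that order were −0.19, −0.27, −0.16 and −0.17 for Dbp. For Cry2 they were −0.15, −0.25, −0.23 and −0.21. Both genes were thus lower in the later reading in 4 of 4 samples, which share 1 slide and are not independent readings. The 2 day 1 arrays of Y_Sham 3 also differed between themselves. Dbp read 8.45 and 8.69 in hippocampus (8.38 later) and 9.02 and 9.28 in cortex (8.99 later). Cry2 read 7.59 and 7.76 in hippocampus (7.52 later) and 7.92 and 8.0 in cortex (7.73 later). For Per2 the differences were 0.06, 0.01, 0.03 and 0.04, against 0.33 and 0.48 between the sets of animals. Per1 gave −0.10, −0.13, −0.21 and −0.18, opposite in sign to its difference between animals (0.21 in hippocampus). Tef gave −0.16, −0.18, −0.17 and −0.27, opposite to its 0.42 in cortex. Per3 gave 0.40, 0.03, 0.26 and 0.21, opposite to its −0.33 in hippocampus. For Nr1d1 they were −0.13, 0.02, −0.04 and −0.15, against −0.44 in hippocampus. For Nr1d2 they were 0.05, −0.04, 0.01 and 0.07, against 0.27 in hippocampus and −0.26 in cortex. Ciart gave −0.31, 0.06, 0.24 and −0.06, against 0.92 in cortex.

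**Figure D4:**
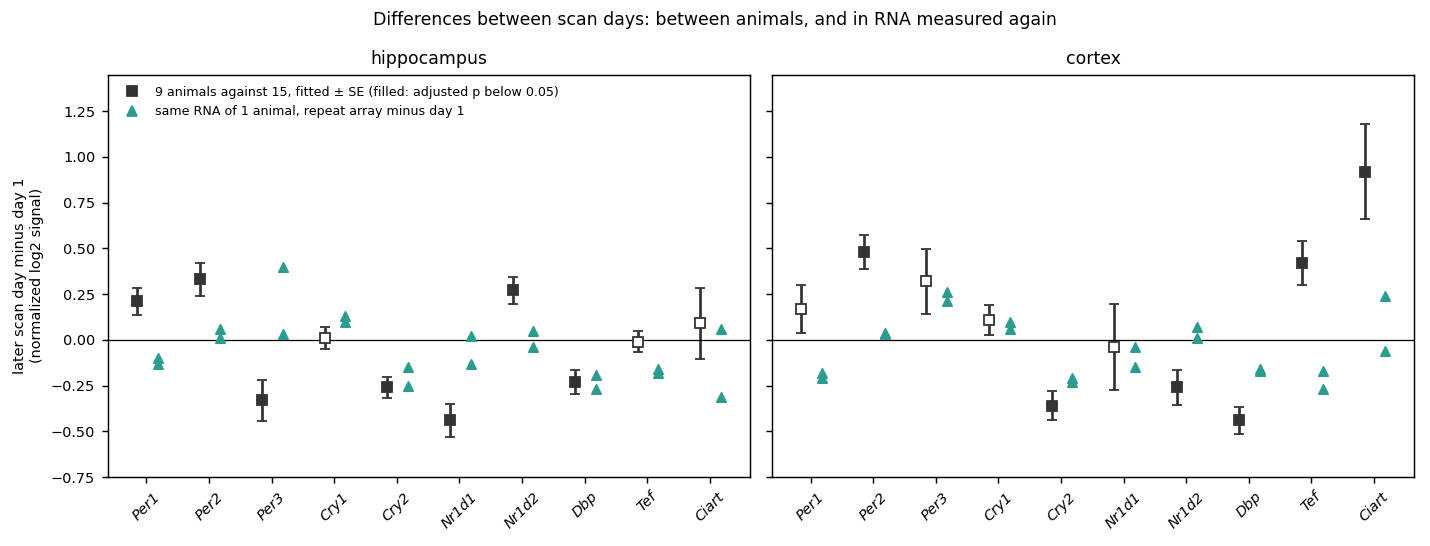
Later scan day minus day 1 in normalized log2 signal (vertical axis) for the 10 genes (horizontal axis) in hippocampus and cortex: squares compare 9 animals with 15 (fitted difference ± SE, filled where the adjusted p was below 0.05), and triangles are the same RNA measured again. Dbp and Cry2 lie below 0 in both, and Per2 triangles lie between 0.01 and 0.06 while its squares lie at 0.33 and 0.48. The triangles are from day 2, whereas the hippocampus squares rest mostly on day 3.

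The spread between animals was set beside that of repeated arrays, as a description that rests on the repeats of 1 animal. The SD between animals within a group was compared with the SD of 3 arrays of 1 animal (Y_Sham 3). In cortex the ratio was 8.84 for Per2, 7.92 for Nr1d1, 4.85 for Nr1d2 and 4.27 for Ciart, against a median of 3.02 over all probes. Near that median were Cry1 (3.14) and Tef (3.05), and below it Per1 (2.2), Per3 (1.78), Cry2 (1.78) and Dbp (1.76). In hippocampus it was 6.75 for Per2, 4.91 for Nr1d2 and 4.19 for Nr1d1 (median of all probes 2.12), but 1.13 for Dbp, 1.19 for Per3 and 0.779 for Tef, whose SD between animals was 0.11 and that of the repeats 0.142. The SD between animals includes the scan days: within group and scan set it was 0.197 in place of 0.265 for Per2, 0.183 in place of 0.305 for Nr1d1 and 0.113 in place of 0.183 for Dbp in hippocampus. It was larger only for Nr1d1 in cortex (0.585 in place of 0.541) and Ciart in hippocampus (0.477 in place of 0.45). From the lowest to the highest of 24 animals, the cortex signal spanned 7.71-fold for Ciart and 5.23-fold for Nr1d1, and the hippocampal signal 1.29-fold for Tef.

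The probes of a gene did not always move together. The Dbp probes correlated across 24 animals at r = 0.88 in hippocampus and 0.60 in cortex, and those of Per1 at 0.333 and 0.161. The Nr1d2 probes correlated at −0.695 in hippocampus and −0.0449 in cortex. In hippocampus the brighter Nr1d2 probe was 0.27 higher in the animals scanned later and the dimmer one 0.38 lower (−0.38 ± 0.0903, SE; adjusted p = 0.00409), so the sign of its scan day difference depended on the probe. These r values are descriptions over animals that share the scan days.

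The 2 regions of an animal were compared through the correlation of each gene between hippocampus and cortex over the 24 animals. These 10 relations and 88 with Dbp (44 clock-related genes in each region) form a family of 98, each with a 2-sided permutation p adjusted over it. Per2 was positively correlated (r = 0.572, permutation p = 0.00314, adjusted 0.0342; rho = 0.561, adjusted 0.0457), with r = 0.496 without the 2 animals farthest from the median. Nr1d2 was negatively correlated (r = −0.556, permutation p = 0.00478, adjusted 0.0406; rho = −0.583, adjusted 0.0391; −0.613 without 2 animals), as was Per3 (r = −0.522, permutation p = 0.00956, adjusted 0.0493; rho = −0.568, adjusted 0.0459; −0.504 without 2 animals). The Nr1d2 relation is that of its brighter probe. Its dimmer probe, which ran against the brighter one in hippocampus (r = −0.695), was not tested. The other 7 members did not pass on r, although Cry2 passed on rho (0.659, adjusted 0.0206; r = 0.426, adjusted 0.127). The median r was −0.0417 over the members and 0.0457 over all probes, and 1 of 10 members was above 0.5, where 9.31% of probes were.

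No member passed once scan day was removed, and for the 3 genes the coefficients were smaller in size within the scan sets. Within the 15 and the 9 animals r was 0.0628 and 0.308 for Per2, −0.292 and −0.439 for Nr1d2 and −0.495 and −0.354 for Per3. With the mean of each scan set subtracted, 0 of 10 members passed (smallest adjusted p 0.297). Leaving out AU_iTBS replicates 2 and 3, 4 members passed on r, Per1 (0.555), Per2 (0.59), Cry2 (0.583) and Dbp (0.548), of which Per2 alone had passed on r with all animals. On rho, Cry2 passed (adjusted 0.0438) and Per1, Per2 and Dbp did not (adjusted 0.0983, 0.0698 and 0.185).

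**Figure D5:**
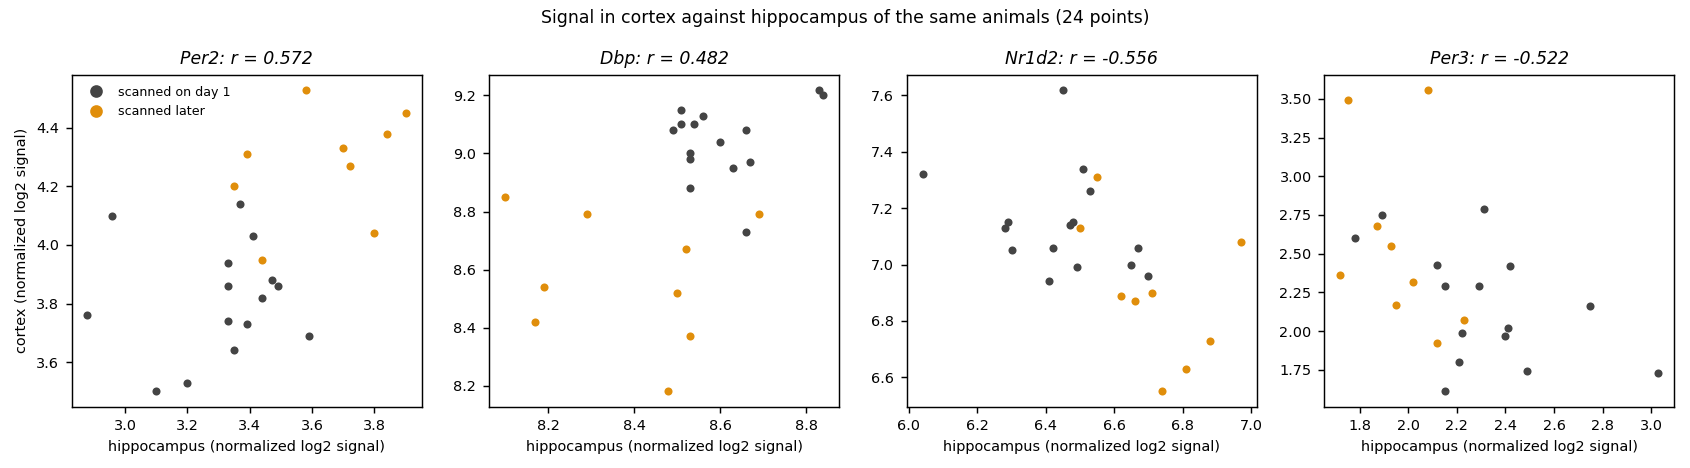
Normalized log2 signal in cortex (vertical axis) against hippocampus (horizontal axis) of the same 24 animals for Per2, Dbp, Nr1d2 and Per3, in dark points for animals scanned on day 1 and orange for those scanned later. The 2 sets of points are offset from each other, and the r in each panel title covers all 24 points.

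Within a region, Cry2 was the member most closely correlated with Dbp. The relation was r = 0.826 in hippocampus (permutation p = 1e-05, the smallest the permutations can give; adjusted 0.00049; rho = 0.665, adjusted 0.0206; 0.801 without the 2 farthest animals), with 0.593 and 0.855 within the scan sets. In cortex it was 0.697 (permutation p = 0.00025, adjusted 0.00612; rho = 0.54, adjusted 0.0459; 0.588 without the 2 farthest animals), but −0.358 and 0.494 within the sets, and 0.524 (adjusted 0.0503) without AU_iTBS replicates 2 and 3. Per2 ran against Dbp in cortex (r = −0.549, permutation p = 0.00575, adjusted 0.0433; rho = −0.529, adjusted 0.0471; −0.58 without the 2 farthest animals), with 0.198 and 0.289 within the sets, so its sign held in neither. No other member passed with Dbp over all 24 animals. Without AU_iTBS replicates 2 and 3, Nr1d1 in cortex passed on r (0.60, permutation p adjusted 0.0341) but not on rho (adjusted 0.088). With all animals its r was −0.0428. Per2 in cortex was then −0.678 (permutation p adjusted 0.011), and its rho did not pass (adjusted 0.0973). Over all 24 animals, 1 of 9 members in each region was above r = 0.5 with Dbp, where 7.78% of all probes were in hippocampus and 11.4% in cortex. Over all 45 pairs of members, 30 were positive in hippocampus (median r 0.154), but 39 within the animals scanned on day 1 (median 0.287) and 23 within the others (median 0.024). In cortex 25 were positive (median 0.10), with 27 (0.176) and 26 (0.237) within the sets.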

How the data were processed

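Total RNA of 24 rats, hippocampus and parietal cortex, was hybridized to 1-color Agilent arrays. The deposited intensity values are the processed signals of Agilent Feature Extraction 12.0.3.1 (per the submitters' processing notes), background-subtracted by the scanner software. The deposited score values are z scores that the authors made from the log signal of each array, and a recomputed z score matched them within 0.005. Here the z-score of log2 processed signal was multiplied by 4.08, the mean SD over arrays, to give a log2 scale on which 0 is the array mean. These log2 values were computed from the deposited intensities. Control spots and spots flagged as outliers were left out (267 to 1448 flagged spots per array), and spots of a probe, then repeat arrays of a sample, were averaged. Probes well above background in at least 3 animals were tested (59.3 to 69.7% of probes were so per array). The number of arrays limits the precision.

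Groups came from the labels. limma 3.58.1 in R 4.3.3 was fitted to 6 group means per region, and to within-animal differences between regions, with Benjamini-Hochberg adjustment over all probes and a threshold of 0.05. A call against scan day used the same fit with a term for animals whose first array was scanned on day 1 or later, with days 2 and 3 pooled. The selection rule was rebuilt from the methods of the study. A probe had to pass an analysis of variance and then a z-test, each at 0.05, the latter with its FDR below 0.3, to exceed 1.5 in z-ratio in either direction, and to average above 0 in z score. How the program of the study computed these steps is not given in the sources used here. Correlations used 100000 permutations (Python 3.11.15, numpy 2.4.6, scipy 1.17.1, pandas 2.3.3, with matplotlib 3.10.9 for plots). Promoters came from a RefSeq table of assembly GRCr8. A gene with several probes was described by the brightest over both regions, and every member was described. The code was tested on simulated data. The members and lists were chosen with earlier results of these data known.

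Alternatives were another scaling (75th percentile, quantile), normexp background correction with an offset of 50 on the median signal, since a mean signal was not among the columns used, the deposited z-scores, no filter, first arrays only, slide, scan day or replicate number as a block, and leaving out each animal. The scan day under other scalings, and leaving out AU_iTBS replicates 2 and 3 together, were chosen after seeing the data. Of 22 same-numbered pairs of sham and iTBS animals, deviations correlated above 0.1 in 9 (−0.28 to 0.39), and the numbers were not taken to pair animals. All 3 AI pairs in cortex were above 0.1 (0.37, 0.39 and 0.14), but not those of the same animals in hippocampus (0.39, 0.14 and −0.01). With the replicate block, 0 members were called in the AI comparison in cortex.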

Additional observations from a re-analysis of the deposited data

Results flagged for a closer look

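Of 100 groups of 4 or 5 animals tested for a sample far from the others, 2 held one. Chance flags about 1 group in 20, so 2 of 100 is fewer than chance alone would give. Per1 in the hippocampus of Y_iTBS was 6.24 in replicate 1, while the nearest of the other 3 was 5.93 and the farthest 5.88, so that the gap took 0.845 of the range. This animal was scanned later than the other 3 of its group. Nr1d1 in the cortex of AU_Sham was 2.49 in replicate 4, while the nearest of the other 3 was 3.1 and the farthest 3.21, a gap of 0.846 of the range. The causes were not tested.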

How the results depend on the processing

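No member was called in any comparison of groups, under any alternative run, the replicate block included (0 in each comparison under the replicate block, where Cry2 in AU cortex was −0.44 and Per3 in aged cortex 0.42). Between regions 7 members were called, 6 under 75th percentile scaling, quantile normalization, no filter or without AU_iTBS replicates 2 and 3, 5 with no replicate block (regions as independent arrays), and 6 to 7 when single animals were left out. Ciart lost its call with no filter (adjusted p = 0.0591), and Cry2 at the 75th percentile (−0.10) and under quantile normalization (−0.05). Tef, which was not called (0.03), reversed to −0.09 with normexp background, and ran from −0.03 to 0.08 over the single animals left out. Members correlated between regions numbered 3, but 1 under quantile normalization and 0 with scan day means subtracted. Relations of members with Dbp that passed numbered 3 (Cry2 in both regions and Per2 in cortex), but 1 under quantile normalization, 5 with normexp, 5 with group means subtracted and 1 with scan day means subtracted. By scan day, 7 members were called in hippocampus (5 with normexp) and 6 in cortex (5 at the 75th percentile, with quantile normalization or the deposited z-scores). Of the counts of members that passed, 748 under alternatives were equal or near to the main count, 4 were clearly lower and 2 clearly higher. A near count need not hold the same members, as the lost calls of Cry2 and Ciart show. The causes were not tested. Groups of 3 to 5 animals gave standard errors up to 0.558 for the iTBS differences, so a missed threshold does not show equal levels.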

Other observations

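The array assigned to no group, whose labels conflict, lay closest over all probes to the hippocampus of AU_iTBS replicate 4 (median absolute difference 0.0837), then to AU_iTBS replicate 5 (0.128). Its signal was 6.02 for Per1, 3.43 for Per2, 8.57 for Dbp and −0.67 for Ciart. The cortex repeat array titled AI_iTBS 2 that was left out read 6.27 for Per1, 3.9 for Per2, 9.0 for Dbp and −0.93 for Ciart.

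Dbp was also set against all 13022 symbols in both regions, over 24 animals with group means removed. The genes most like it by the mean r of the regions were Flot1 (0.859), Rell2 (0.852), Cyth2 (0.846), Gpr137 (0.844), Crat (0.841), B4galt7 (0.836), Kcnk12 (0.836) and Atcay (0.829). The lowest were LOC681325 (−0.80), Arl13b (−0.799), Memo1 (−0.795), Virma (−0.787) and Ctbs (−0.783). Of the members, Cry2 stood at rank 41 (0.784), Nr1d2 at rank 1406 (0.497) and Per2 at rank 12350 (−0.502). All these animals share the scan days, which were not removed here.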
